A study of Rattus norvegicus with 12 samples.

Results

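This account covers 6 annexin genes, Anxa1, Anxa3, Anxa4, Anxa6, Anxa7 and Anxa11, among the 3939 named genes measured in rats treated with LPS, the endotoxin of Gram-negative bacteria. The members were chosen by gene symbol in the array's annotation, each has 1 probe, and 1 further annexin probe is not reported here. The series title is the only source for blood as the tissue. Total RNA was hybridised on 12 arrays with 2 colours, which hold 3 rats labelled LPS 2 h (numbers 1, 2 and 3) and 3 labelled LPS 6 h (numbers 2, 4 and 6). Every animal was hybridised with the pooled control RNA of the same time on 2 arrays with the channels exchanged, called fluor (LPS RNA in channel 2) and flip (LPS RNA in channel 1). Strain, sex, age, dose, route, the treatment of the controls and the number of animals per pool are not stated in the labels. Whether rat 2 of the 2 times was 1 animal is not stated either, and the 6 rats were treated as different animals.

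Annexins are proteins that bind negatively charged membrane phospholipids when calcium rises, through a conserved core, while their N-terminal tails differ and carry the contacts particular to each member. They take part in vesicle traffic, membrane repair and the organisation of the cell cortex. Annexin A1, encoded by Anxa1, is abundant in neutrophils and monocytes, is induced by glucocorticoids, limits phospholipase A2 activity and acts through formyl peptide receptors to restrain leukocyte recruitment. Annexin A3 is abundant in neutrophil granules, annexin A6 has a duplicated core, and annexins A7 and A11 have long N-terminal tails.

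Of the 6 genes, 5 had a promoter entry in the RefSeq table of build GRCr8, all but Anxa6. The 250 bases before the annotated start of transcription are shown for Anxa1, Anxa3 and Anxa7, which had the largest ratios in size at 6 h. They lie at chr1:227303733-227303982 (minus strand), chr14:13085598-13085847 (minus strand) and chr15:3870790-3871039 (plus strand). Capitals mark matches to any motif searched on both strands, which were the TATA box (TATAAA), the CCAAT box (CCAAT), the GC box (GGGCGG), the AP-1 site (TGANTCA), a core of the glucocorticoid response element (TGTTCT) and the NF-kappaB site.
Anxa1: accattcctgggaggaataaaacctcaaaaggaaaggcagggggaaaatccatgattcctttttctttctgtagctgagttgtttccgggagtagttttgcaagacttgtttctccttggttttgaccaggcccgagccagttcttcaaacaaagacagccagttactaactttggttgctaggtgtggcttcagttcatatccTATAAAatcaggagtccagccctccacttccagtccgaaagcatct
Anxa3: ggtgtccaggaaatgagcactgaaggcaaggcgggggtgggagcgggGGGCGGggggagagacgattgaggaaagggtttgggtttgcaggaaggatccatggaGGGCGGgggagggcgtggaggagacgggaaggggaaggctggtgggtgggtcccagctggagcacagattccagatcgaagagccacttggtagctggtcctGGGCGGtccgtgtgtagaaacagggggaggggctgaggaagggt
Anxa7: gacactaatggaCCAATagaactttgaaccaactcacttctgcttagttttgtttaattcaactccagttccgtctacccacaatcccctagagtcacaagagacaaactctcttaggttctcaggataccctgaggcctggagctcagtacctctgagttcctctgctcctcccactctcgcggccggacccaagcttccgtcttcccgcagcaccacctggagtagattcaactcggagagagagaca
The Anxa1 window held TATAAA 46 bases before the start, a motif that 12.9% of 33469 promoter windows of this length held. The Anxa3 window held GGGCGG 3 times (30.5% of windows held it), and the Anxa7 window held CCAAT once (34.0% of windows held it). The base composition also differed, with 45.2% G and C for Anxa1, 64% for Anxa3 and 50.8% for Anxa7, against a median of 51.2%. Among the windows not printed, Anxa4 had the only NF-kappaB match of the 5, at 83 bases before the start (6.33% of windows), and Anxa11 had 4 GGGCGG matches. TGANTCA (6.34% of windows) and TGTTCT (17.5%) had no match in any of the 5. A match is a run of letters in this window and no evidence of binding.

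Values below are log2 ratios of LPS over control pool, so 1 is a 2-fold difference, and a rat's value is the mean of its 2 arrays. The direction is likely, not stated by the labels: the ratios were used as deposited because 5 genes known to be induced by LPS (Zfp36, Lcn2, Irf1, Il1r2 and Il1b) had positive values on each of the 12 arrays. Nfkbia, also LPS-induced, lay above 0 on 3. Over all probes the paired arrays of single rats correlated weakly, from -0.23 in 2 h rat 3 to 0.25 in 2 h rat 2, while arrays of 1 orientation correlated at 0.38 to 0.66 with each other. Rises and falls named below are differences past adjusted p under 0.05 in limma over all named genes. Ratios carry no level, so the tissue could not be checked against its markers and no probe's abundance is known. In bulk RNA, fewer cells of a type and less RNA per cell cannot be told apart.

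Anxa1 had by far the largest ratio of the family at both times. At 2 h it stood at 3.34 and 2.99 on the fluor and flip arrays of rat 1, at 2.81 and 2.75 in rat 2, and at 2.77 and 1.27 in rat 3. At 6 h it stood at 3.10 and 2.19 in rat 2, at 1.53 and 1.47 in rat 4, and at 1.59 and 1.77 in rat 6. All 12 values were above 0, the flip array of 2 h rat 3 was the lowest, and 6 h rat 2 stood within the range of the 2 h rats. The mean was 2.65 ± 0.58 at 2 h (SD, n = 3 rats; 6.30-fold; limma adjusted p = 0.0012) and 1.94 ± 0.62 at 6 h (3.84-fold; adjusted p = 0.00372). Of 3939 genes, 3 had a higher mean at 2 h and 5 at 6 h. The difference, 6 h minus 2 h, was -0.71 with a standard error of 0.37 and did not pass (adjusted p = 0.446), and the rats of the 2 times overlapped.

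Of the 6 annexin genes, 3 passed at 2 h, where 19.2% of all named genes passed, and 4 passed at 6 h, where 19.0% passed. Anxa1 and Anxa11 rose at 2 h, where 9.34% of all named genes rose, and Anxa4 fell, where 9.82% fell. Anxa1 and Anxa3 rose at 6 h, where 8.30% rose, and Anxa6 and Anxa7 fell, where 10.7% fell. Of the 6, Anxa1 alone passed at both times on the rat means. The median of the 6 ratios was 0.04 at 2 h and -0.07 at 6 h, against -0.0070 and 0.0069 over all genes. The members thus moved in both directions, and apart from Anxa1 by less than 0.5 on the log2 scale.

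**Figure D1:**
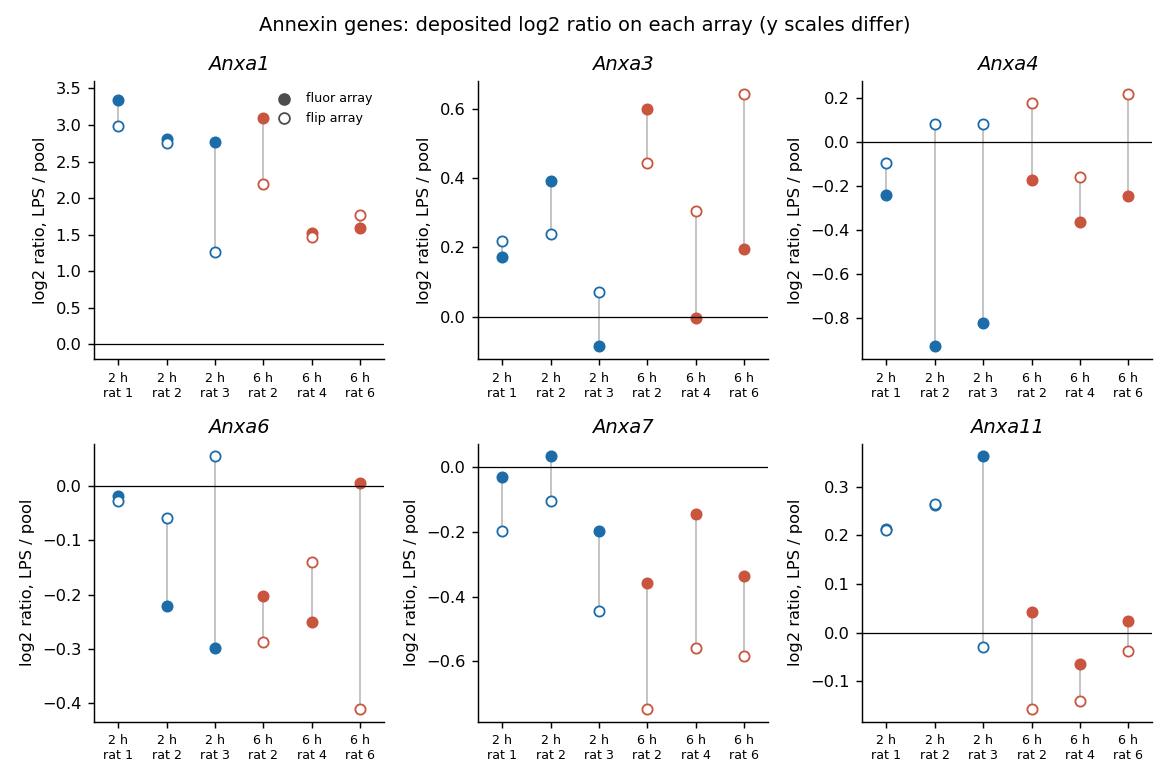
Deposited log2 ratio of LPS over control pool (y axis, scale differs between genes) of each annexin gene on each array, by rat and time (x axis), with filled points for fluor and open points for flip arrays joined within a rat. Anxa1 lies between 1.27 and 3.34 on all 12 arrays, while the 2 arrays of a rat fall on opposite sides of 0 for Anxa4 in 4 rats.

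Anxa3, the neutrophil granule annexin, stood at 0.20, 0.31 and -0.0075 in 2 h rats 1, 2 and 3. In 6 h rats 2, 4 and 6 it stood at 0.52, 0.15 and 0.42. The 3 rats at 6 h were all above 0, and the 2 times overlapped. It rose by 0.36 ± 0.19 at 6 h (1.29-fold; adjusted p = 0.024), whereas the 2 h mean of 0.17 ± 0.16 did not pass (adjusted p = 0.184). The 6 h call was lost without 6 h rat 2 (adjusted p = 0.142), without 6 h rat 6 (0.0952) and on the fluor arrays alone (0.146).

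Anxa11 had the tightest replicates at 2 h, with 0.21, 0.26 and 0.17 in rats 1, 2 and 3, and it lay at -0.06, -0.10 and -0.0064 in 6 h rats 2, 4 and 6. Every 2 h rat was above 0 and every 6 h rat below it, so the times did not overlap. It rose by 0.21 ± 0.05 at 2 h (1.16-fold; adjusted p = 0.00622), a call lost on the flip arrays alone (0.15, adjusted p = 0.168). Its 6 h mean was -0.06 ± 0.05 (adjusted p = 0.267).

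Anxa7, named synexin for its action on granule membranes in vitro, stood at -0.11, -0.04 and -0.32 in 2 h rats 1, 2 and 3. In 6 h rats 2, 4 and 6 it stood at -0.55, -0.35 and -0.46, below every 2 h rat. It fell by 0.45 ± 0.10 on the log2 scale at 6 h (mean -0.45, 1.37-fold lower; adjusted p = 0.00347), with all 6 arrays below 0. The 2 h mean of -0.16 ± 0.15 did not pass (adjusted p = 0.114). It passed in the limma fit of all 12 arrays, with orientation as a covariate and rat as random block (adjusted p = 0.0414). There Anxa7 thus passed at both times. That fit took the 2 arrays of a rat as separate values rather than as 1 mean. That fit also called more of all named genes, 1118 at 2 h and 1107 at 6 h, against 755 and 749 on the rat means. On the fluor arrays alone the 6 h mean was -0.28 and on the flip arrays alone -0.63, and both passed (adjusted p = 0.0184 and 0.00115).

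Anxa6, an annexin of endosomes and the plasma membrane, stood at -0.02, -0.14 and -0.12 in 2 h rats 1, 2 and 3. The 6 h rats 2, 4 and 6 stood at -0.24, -0.20 and -0.20 and lay below every 2 h rat. It fell by 0.21 ± 0.03 on the log2 scale at 6 h (mean -0.21, 1.16-fold lower; adjusted p = 0.00585), and the 2 h mean of -0.09 ± 0.06 did not pass (adjusted p = 0.0867) except with neighbouring probes subtracted (-0.15, adjusted p = 0.0401). The 6 h call was lost without 6 h rat 2 (adjusted p = 0.0502) and on the fluor arrays alone (0.143).

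Anxa4, an annexin best known from secretory epithelia, stood at -0.17, -0.42 and -0.37 in 2 h rats 1, 2 and 3, and at 0.0016, -0.26 and -0.01 in 6 h rats 2, 4 and 6. The rats of the 2 times overlapped. Its 2 h mean was -0.32 ± 0.13 (1.25-fold lower; adjusted p = 0.0192) and its 6 h mean -0.09 ± 0.15 (adjusted p = 0.362). The fluor arrays stood below the flip arrays in all 6 rats, by as much as -0.93 against 0.08 in 2 h rat 2. At 2 h the mean was -0.66 in the fluor orientation and 0.02 in the flip orientation, so the call rests on 1 orientation, and it was also lost without 2 h rat 2 (adjusted p = 0.108) and without 2 h rat 3 (0.0723).

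**Figure D2:**
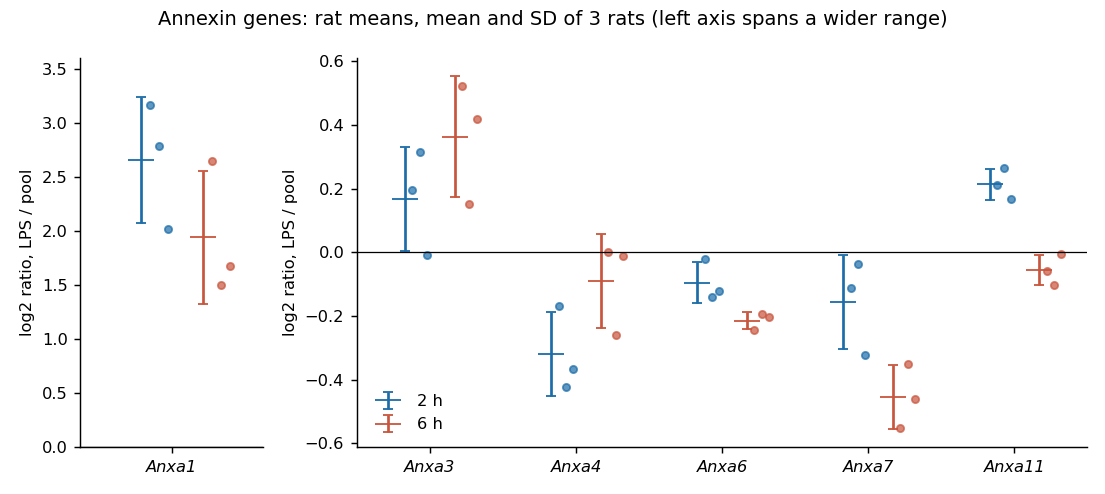
Mean of the 2 arrays of single rats (points) with the mean and SD of 3 rats (bars) at 2 h and 6 h, as log2 ratio of LPS over control pool; Anxa1 has an axis of its own. Anxa6, Anxa7 and Anxa11 are the genes whose 2 h and 6 h rats do not overlap.

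The difference between the times was tested for each gene in the same model. In limma 0 of the 6 genes passed, where 0.508% of all named genes passed (0.330% higher and 0.178% lower at 6 h). Of the 6, 4 had an unadjusted p under 0.05, but the share of all named genes at that level was not counted. Without that share, whether the count is particular to annexin genes cannot be told. Anxa11 came closest, at -0.27 with a standard error of 0.05 (adjusted p = 0.0594), followed by Anxa7 at -0.30 with a standard error of 0.09 (adjusted p = 0.186). Both passed when all 12 arrays were fitted together, with orientation as a covariate and rat as random block (adjusted p = 0.0291 and 0.0474). In that fit 131 of all named genes passed, against 20 on the rat means. Anxa6 (-0.12), Anxa3 (0.20) and Anxa4 (0.23) had adjusted p of 0.311, 0.488 and 0.326. The 2 h and 6 h rats did not overlap for 3 of the 6 genes, and for 21.7% of all named genes. Any difference between the 2 control pools is part of these values.

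By the root mean square difference of log2 ratios over the 6 rats, the genes with values nearest to those of Anxa1 were S100a9, a neutrophil calcium-binding protein (0.61), Il1b, the cytokine interleukin-1 beta (0.96) and the peroxiredoxin gene Prdx5 (1.06). Only 2 genes lay within 1 of Anxa1. S100a9 stood at 2.98 ± 0.53 at 2 h and 2.70 ± 0.44 at 6 h, Il1b at 3.90 ± 0.31 and 2.05 ± 0.13, and Prdx5 at 1.48 ± 0.29 and 2.78 ± 0.28. The other annexin genes had many neighbours: 266 genes lay within 0.25 of Anxa7, 542 of Anxa3, 1462 of Anxa4, 2706 of Anxa6 and 3023 of Anxa11. The nearest were Anapc5, Cnn2 and Wdr20 for Anxa7 and Mt3, Des and Zeb2 for Anxa3. They were Tm9sf3, Ccng2 and Lamp2 for Anxa4, Arl3, Ctsh and Abcg1 for Anxa6, and Ube2r2, Tom1 and Cpne3 for Anxa11. This measure is a description of these rats only.

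The receptors through which annexin A1 acts were not among the named probes: of 10 listed formyl peptide and resolution genes, the lipoxygenases Alox5 and Alox15 were measured. Alox5, which makes leukotriene precursors, rose at 6 h (0.23 ± 0.09, adjusted p = 0.00856) and only just at 2 h (0.14 ± 0.03, adjusted p = 0.048), where the call was lost in 10 of 17 alternatives. Its 6 h call was lost on the fluor arrays alone and with neighbouring probes subtracted. Alox15 stood at 0.56 ± 0.27 and 0.41 ± 0.55 (adjusted p = 0.0795 and 0.167). Of 15 phospholipase A2 genes 4 were measured. Plaat3, a phospholipase A and acyltransferase, fell at both times (-0.51 ± 0.07 and -0.47 ± 0.07, adjusted p = 0.000499 and 0.00038), and the calcium-independent Pla2g6 stood at -0.03 and -0.04 (adjusted p = 0.544 and 0.507). The probes of Pla2g1b and Pla2g2a held the repeated value of the array, which 242 to 298 probes shared, on 11 of 12 arrays. Pla2g2a passed formally at 2 h (-0.61, adjusted p = 0.0336), but at most 1 of its 12 values was a ratio of its own.

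Genes of the glucocorticoid receptor and its known targets, the class to which Anxa1 belongs, were measured in 7 of 13 cases. Of these 4 rose at 2 h and 4 at 6 h, and 0 fell at either time, with list medians of 0.38 and 0.26. Over all named genes 9.34% rose and 9.82% fell at 2 h, and 8.30% rose and 10.7% fell at 6 h. Nr3c1, the glucocorticoid receptor, rose by 0.53 ± 0.12 at 2 h and 0.99 ± 0.09 at 6 h (adjusted p = 0.0012 and 9.2e-05). The decoy receptor Il1r2 (0.62 ± 0.09 and 0.73 ± 0.24) and the phosphatase Dusp1 (0.62 ± 0.34 and 0.47 ± 0.22) rose at both times, although the 6 h call on Dusp1 (adjusted p = 0.0463) was lost in 9 of 17 alternatives. At 2 h the Il1r2 call was lost on the flip arrays alone (0.37, adjusted p = 0.286), and the Dusp1 call on the fluor arrays alone (adjusted p = 0.0602) and without 2 h rat 2 (0.0631). Mt2A, a metallothionein, rose at 2 h (0.38 ± 0.19, adjusted p = 0.017), a call lost without 2 h rat 1 (0.0552) or rat 2 (0.0745), and Zfp36, which destabilises cytokine mRNA, rose at 6 h (0.26 ± 0.11, adjusted p = 0.00814). Per1 and Nfkbia passed at neither time. Many of these genes also respond to LPS by other routes. Il1r2 and Zfp36 were also used to read the direction of the ratios, so the sign of their values is no independent result.

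Among 6 S100 genes whose proteins bind annexins, 4 were measured. S100a11, a partner of annexin A1, rose at 2 h (0.48 ± 0.11, adjusted p = 0.00958) and stood at 0.18 ± 0.23 at 6 h (adjusted p = 0.168). Its 2 h call was lost on the flip arrays alone (adjusted p = 0.0969) and without 2 h rat 2 (0.0628). S100a10 fell at both times (-0.77 ± 0.17 and -0.65 ± 0.10, adjusted p = 0.000781 and 0.00101), as did S100a4 (-0.42 ± 0.14 and -0.32 ± 0.12, adjusted p = 0.00608 and 0.0147). The S100a10 call at 2 h was lost on the flip arrays alone (-0.37, adjusted p = 0.0528), and the S100a4 call at 6 h without 6 h rat 2 (0.0933) or rat 6 (0.0591). S100b stood at -0.0090 and 0.09. The list median was -0.21 at 2 h and -0.12 at 6 h. Of 7 penta-EF-hand genes, a calcium-binding family with partners of annexins A7 and A11, Pdcd6, Capn1 and Capn2 were measured. In limma 0 of these 3 passed at either time, and 1 had an unadjusted p under 0.05 at 2 h and 0 at 6 h.

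Of 13 genes for membrane repair or calcium-dependent membrane binding, 6 were measured, of which 2 rose and 1 fell at 2 h and 3 rose and 1 fell at 6 h. The shares of all named genes were 9.34% and 9.82% at 2 h and 8.30% and 10.7% at 6 h. Prkcb, protein kinase C beta, fell at both times (-0.80 ± 0.09 and -0.87 ± 0.07, adjusted p = 0.000149 and 8.1e-05). Trim72, a membrane repair protein known from muscle, rose at 6 h (0.37 ± 0.07, adjusted p = 0.000851). Myof, or myoferlin, also rose at 6 h (0.26 ± 0.04, adjusted p = 0.0172), a call lost on the flip arrays alone (0.018) and without any single 6 h rat (adjusted p from 0.0707 to 0.0810). The copine gene Cpne3 rose at 2 h (0.18 ± 0.07, adjusted p = 0.0163) and Syt1, or synaptotagmin 1, at both times (0.28 ± 0.18 and 0.31 ± 0.13, adjusted p = 0.0379 and 0.0267), and all 3 of these calls were lost on the flip arrays alone. The Syt1 calls were also lost without any single rat of the same time, and the Cpne3 call without 2 h rat 2 or rat 3. Mfge8 passed at neither time.

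Markers of blood cell types moved in both directions. For comparison, 9.34% of all named genes rose and 9.82% fell at 2 h, and 8.30% rose and 10.7% fell at 6 h. Of 16 neutrophil markers 5 were measured, of which 4 rose at 2 h and 3 at 6 h, and the mean ratio of the list lay between 0.83 and 1.10 in the 2 h rats and between 0.55 and 0.88 in the 6 h rats. S100a9, Lcn2 and Il1r2 rose at both times, and S100a9 had by far the largest ratio of the list. Lcn2 and Il1r2 were also used to read the direction, and Il1r2 is counted among the glucocorticoid targets as well. Chi3l1 rose at 2 h (0.57) and stood at -0.37 at 6 h (adjusted p = 0.0579), while S100a8 stood at -0.08 and -0.05. The Chi3l1 call was lost on the flip arrays alone (adjusted p = 0.0739) and without 2 h rat 2 (0.0622), and the 6 h call on Lcn2 with arrays scaled alike (0.0708) and without 6 h rat 2 (0.0556). Of 4 T cell markers 2 fell at each time, with list means from -0.35 to -0.26 at 2 h and from -0.40 to -0.14 at 6 h. Of 2 B cell markers 2 fell at 2 h and 1 at 6 h (-0.33 to -0.23 and -0.43 to -0.38), and of 3 monocyte and macrophage markers 1 and 2 fell (-0.29 to -0.15 and -0.29 to -0.11). Of 3 NK and cytotoxic markers 2 rose at each time (0.44 to 0.61 and 0.64 to 0.78), with a list median of 0.42 at 2 h and 0.27 at 6 h. The granzyme gene Gzmc (1.17 and 1.87) had the largest ratio and rose at both times, the interleukin-2 receptor gene Il2rb rose at 2 h (0.42) and stood at -0.03 at 6 h, and the perforin gene Prf1 stood at 0.0095 at 2 h and rose at 6 h (0.27). Of 6 erythroid markers 4 rose and 1 fell at 2 h and 2 fell at 6 h (0.24 to 0.42 and -0.02 to 0.29), and of 2 platelet markers 1 and 0 rose (0.07 to 0.38 and -0.42 to -0.03), with 1 at an unadjusted p under 0.05 at 6 h. Their part in the annexin ratios was not tested.

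Multiplying the flip arrays by -1 tests the other reading of the direction, in which a difference alike on both arrays of a rat cancels. Anxa1 then stood at 0.32 at 2 h and 0.13 at 6 h, neither past the threshold (adjusted p = 0.175 and 0.511). Of the 6 genes, Anxa4 passed at 2 h (-0.34) and Anxa7 at 6 h with the other sign (0.18), and Anxa3 and Anxa6 also changed sign at 6 h, to -0.10 and 0.065. For Anxa1 the arrays of both orientations gave 2.97 and 2.34 at 2 h and 2.07 and 1.81 at 6 h, so its ratio was shared by both. For the other genes the gap between orientations was of the size of the ratio itself in several cases, as with Anxa4.

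**Figure D3:**
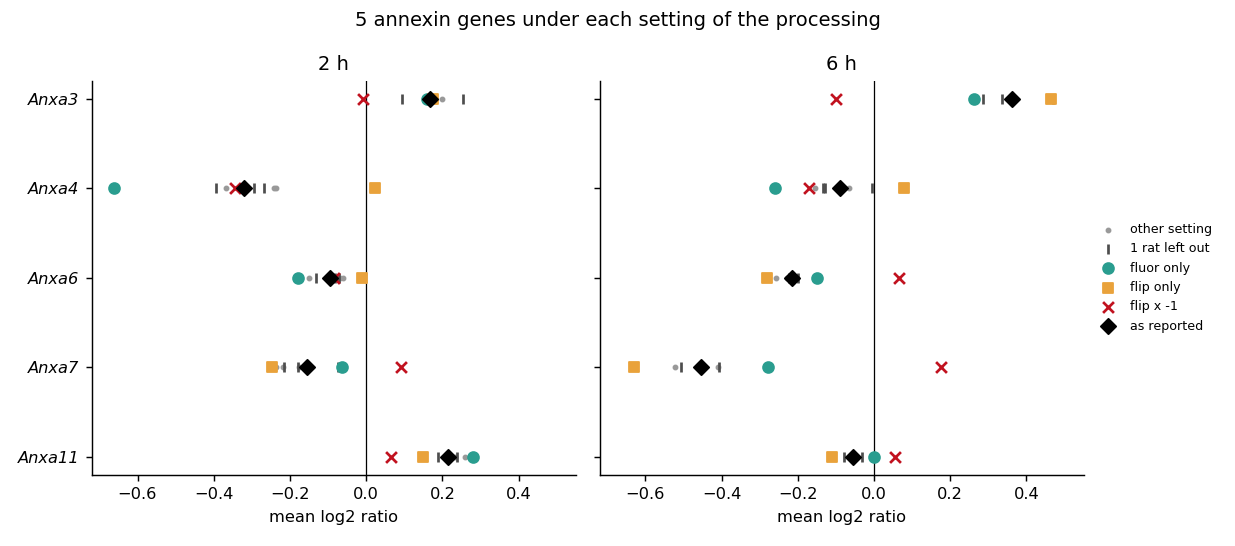
Mean log2 ratio (x axis) of 5 annexin genes (rows) at 2 h and 6 h as reported (diamonds) and under each alternative setting, with fluor arrays alone, flip arrays alone and the flip arrays multiplied by -1 marked. At 2 h Anxa4 lies at -0.66 with fluor arrays alone and at 0.02 with flip arrays alone, while Anxa7 at 6 h lies below 0 in all but the setting with the flip arrays multiplied by -1.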

How the data were processed

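The authors deposited a log2 ratio for each probe on each array, covering 7200 probes and 12 arrays with 0 missing values. Base 2 was inferred because 2 raised to the deposited value gave whole multiples of 0.0001 (tolerance 0.05 of a step) for 100% of the ratios below 5. For scanner, dyes, background correction and normalization, the method was not given in the sources used here. The medians of the arrays lay between -0.020 and 0.0083, and no intensities or levels were used here. Precision is limited by the 3 rats per time, since the 2 arrays of a rat count as 1 value. Between 242 and 298 probes per array carried 1 identical value, none of them an annexin probe.

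Gene names come from the 2007 platform table, and symbols were brought up to date by gene ID in the GRCr8 table (4184 of the 4190 probes with 1 symbol matched, 46 probes had several symbols and 2964 none). Probes of a gene were averaged, then the 2 arrays of a rat. The 6 rat values per gene entered limma 3.58.1 in R 4.3.3 (lmFit, eBayes) with 2 group means, tested against 0 and against each other, with Benjamini-Hochberg adjustment over 3939 genes. The control pool counts as 1 control sample whose own spread is left out, and whether a rat's RNA came from 1 or more extractions is not stated. The fit was tested on simulated data. By rule the genes named are the 6 members, the called genes of the pathway lists, and the 3 genes nearest to each called member. Other genes named (list members that did not pass, cell type markers and the genes behind the direction) were chosen after their values were seen. Members and lists were chosen with earlier results of these data known. The alternatives are described in the closing section.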

Additional observations from a re-analysis of the deposited data

Results flagged for a closer look

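Anxa11 is listed because every 2 h rat lay above 0 and every 6 h rat below it. The difference, 6 h minus 2 h, was -0.27 on the log2 scale and was tested in the limma model (adjusted p = 0.0594), so it missed the threshold. Over 16 alternatives other than the flip arrays multiplied by -1 it ran from -0.31 to -0.24, with adjusted p from 0.0291 to 0.219.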

How the results depend on the processing

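No paired analysis was possible because the 2 times share 1 rat number alone. Of 306 values of the annexin genes under 17 alternatives, 278 kept their direction and side of the threshold, 11 lost the threshold, 4 gained it and 13 changed sign; the cause was not tested. Median centring, scaling and quantile normalization left 3 annexin genes past the threshold at 2 h and 4 at 6 h. The count was 1 at 2 h (Anxa4) and 1 at 6 h (Anxa7) with the flip arrays multiplied by -1. It was 1 at 2 h on the flip arrays alone and 2 at 6 h on the fluor arrays alone. Between the times it was 2 in the fit of all arrays with orientation as a covariate and rat as random block. That fit gave 4 at 2 h (Anxa7 added), as did subtraction of neighbouring probes (Anxa6 added). With 1 rat left out it ran from 2 to 3 at 2 h, from 2 to 4 at 6 h (2 without 6 h rat 2) and was 0 between the times.

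Signs turned with the flip arrays multiplied by -1 for Anxa3 (-0.0084 at 2 h, -0.10 at 6 h, -0.092 for the difference), Anxa6 (0.065 at 6 h, 0.15 for the difference), Anxa7 (0.092, 0.18 and 0.084) and Anxa11 (0.056 at 6 h). They also turned for Anxa4 on the flip arrays alone (0.024 and 0.080), and on the fluor arrays alone for Anxa11 at 6 h (0.00091) and for the difference of Anxa6 (0.030). The alternatives were also run for 40 calls on the called pathway genes, the 3 genes nearest to Anxa1 and the markers Lcn2, Chi3l1, Gzmc, Prf1 and Il2rb. Of these 22 held in every alternative but the flip arrays multiplied by -1. There 9 held, 22 were lost and 9 turned: Lcn2 at 2 h (-0.15), Prf1 at 6 h (-0.067), Alox5 (-0.12) and Il1r2 (-0.094) at 6 h, Dusp1 (-0.094 and -0.10), Mt2A (-0.065) at 2 h and Prkcb (0.0044 and 0.16). Pla2g2a turned on the flip arrays alone (0.017).

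Of all genes 755 passed at 2 h, 749 at 6 h and 20 between the times. The fluor arrays alone gave 1142, 1202 and 4. The flip arrays alone gave 336 at 2 h and 5 between the times, and the flip arrays multiplied by -1 gave 1461 at 6 h and 0 between them. The fit with orientation as a covariate gave 1118 at 2 h, 1107 at 6 h and 131 between the times. Between the times, quantile normalization gave 8 and subtraction of neighbouring probes 10. The 20 were 13 higher and 7 lower, but 6 and 8 with scaling and 3 and 5 with quantile normalization and 4 and 6 with neighbouring probes subtracted. With 1 rat left out the counts ran from 323 to 668, 306 to 927 and 2 to 31.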
